A study of Homo sapiens with 6 samples.

Results

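Transcripts of 10 genes of the TGF-beta pathway were compared between SNU-449 cells labelled as overexpressing USP48 and SNU-449 cells carrying an empty vector. The genes were chosen by name, with earlier results of these data known. They were the ligands TGFB1 and TGFB2, the receptors TGFBR1 and TGFBR2, and the SMAD genes SMAD3 and SMAD7. The target genes or feedback regulators SKIL, PMEPA1, TGFBI and TSC22D1 made up the rest. Each of the 10 had at least 1 probe set on the array, a probe set being a group of short oligonucleotides read together as 1 value, and 30 of 54613 probe sets named exactly 1 of them. All 30 were measured on every array, and none was removed by a filter on low values.

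SNU-449 is a human hepatocellular carcinoma cell line. The 3 arrays of the group labelled USP48 overexpression (genotype USP48 OE) held RNA of cells that had received the deubiquitinating enzyme USP48 by lentivirus and were kept under puromycin to obtain a stable line, and the 3 arrays of the other group (genotype Ctrl) held RNA of cells given an empty vector. All cells were grown in RPMI-1640 with fetal bovine serum. The labels name no TGF-beta added to the medium, do not describe the transduction of the vector cells separately, and do not say whether a line was clonal or whether replicates came from separate cultures, so that a p-value here sets a difference against the spread of these samples alone, a spread that may be technical.

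TGF-beta ligands are secreted in a latent form and, once released, bind TGFBR2, a kinase that phosphorylates TGFBR1. TGFBR1 then phosphorylates SMAD2 and SMAD3, which join SMAD4 and enter the nucleus to regulate transcription. SMAD7, SKIL and PMEPA1 are both targets and inhibitors of this signal, and in the liver the pathway is known for arresting hepatocyte growth and for driving stellate cells to lay down matrix.

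Values are RMA values on the log2 scale, so a difference of 1 is a doubling, and differences are USP48 overexpression minus empty vector. A difference was called when its limma adjusted p, over all 54613 probe sets, was under 0.05. Levels of different probe sets are not set against each other, because each responds to its target with its own strength. The medians of the 6 arrays lay between 3.74 and 3.79, and a group mean below every array's median is called dim here and given no fold, since detection above background was not analysed.

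Of the 5 probe sets of USP48, 0 were called higher and 2 were called lower in the arrays labelled USP48 overexpression. Whether they read the USP48 sequence carried by the virus was not analysed here, and the groups are named by their labels. The 18 hybridization control probe sets, which read labelled RNAs added before hybridization, averaged 10.09 ± 0.10 in the USP48 overexpression arrays and 9.79 ± 0.04 in the empty vector arrays (SD, n = 3 each; exact permutation p = 0.1, two-sided, the smallest that 3 against 3 arrays allow). Scaling the arrays to equal hybridization controls lowers every difference by 0.29, and a named probe set or gene whose call turns on this is given with both values. The 24 poly-A control probe sets, which read RNAs added before labelling, averaged 5.55 ± 0.24 in the USP48 overexpression arrays and 5.13 ± 0.13 in the empty vector arrays (SD, n = 3 each; exact permutation p = 0.1, two-sided), a gap of 0.42, and no scaling on them was run. The 5′ minus 3′ difference of the GAPDH control probe sets, a measure of RNA integrity, was −1.31 in USP48 overexpression replicate 3, between −0.51 and −0.45 in the other 2 arrays of that group and between −0.44 and −0.32 in the empty vector arrays. For ACTB the 5′ minus 3′ difference averaged −3.82 ± 0.35 in the USP48 overexpression arrays and −3.46 ± 0.22 in the empty vector arrays (SD, n = 3 each; exact permutation p = 0.2, two-sided). Among 8 measured hepatocyte and hepatoma markers 5 were dim in both groups, ALB and APOA1 among them, and 0 were called. Scaling on the hybridization controls took APOA1 from −0.01 to −0.31 (limma adjusted p = 0.0497). It took FGB, also dim in both groups, from −0.06 to −0.35 (limma adjusted p = 0.017). The keratin genes KRT8 and KRT18 and the mesenchymal gene VIM lay above the median of every array in both groups, while the keratin gene KRT19 was dim in both. KRT8 was not called as deposited (−0.31, limma adjusted p = 0.12) and was lower after scaling on the hybridization controls (−0.60, limma adjusted p = 0.0077). Of the 7 epithelial and mesenchymal markers 0 were called higher and 4 lower, EPCAM and CDH1 as well as VIM and CDH2. CDH1, dim in both groups, lost its call without USP48 overexpression replicate 1 or empty vector replicate 1 or 2 (limma adjusted p between 0.052 and 0.076). The other probe set of VIM was at −0.11 and that of CDH1 at −0.06. With the mean of the 2 probe sets VIM (limma adjusted p = 0.055) and CDH1 (limma adjusted p = 0.064) did not pass, while CDH2 did (limma adjusted p = 0.0012). Of 11 markers of leukocytes, endothelium and fibroblasts, 6 were dim in both groups, PTPRC, LYZ and COL3A1 among them, and 1 was called, CDH5 at −0.42, a call lost without empty vector replicate 2 (limma adjusted p = 0.059). Scaling on the hybridization controls took PTPRC from −0.08 to −0.38 (limma adjusted p = 0.019). It took PDGFRB from −0.16 to −0.45 (limma adjusted p = 0.014). The summed level of these 11 markers ran from 7.13 to 7.25 on the log2 scale in the USP48 overexpression arrays and from 7.04 to 7.19 in the empty vector arrays.

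In the USP48 overexpression arrays TGFB2, SMAD3 and TSC22D1 rose, while TGFBR1, TGFBR2, SKIL and PMEPA1 fell by their brightest probe sets. TGFB1, SMAD7 and TGFBI did not pass the test. Of the 30 probe sets 8 were higher, 7 were lower and 15 were not called, so that 50% were called, against 24.3% of all probe sets on the array. By direction 10.6% of all probe sets were called higher and 13.8% lower. The median difference of the 30 was 0.01 and that of all probe sets 0.03. Of the 30, 8 were dim in both groups and 4 in 1 group. At least 2-fold differences were called for 8 of the 30, 3 higher and 5 lower, against 3.57% of all probe sets. The groups did not overlap for 20 of the 30, against 38.2% of all probe sets. Probe sets of 1 gene can read overlapping or shared transcripts and are not independent of each other.

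The balance between the directions moved with the scaling. After scaling on the hybridization controls 4 of the 30 probe sets were higher and 14 lower, and over the whole array 1826 (3.34%) were higher and 21292 (39%) lower, against 5768 and 7519 as deposited. The 4 that stayed higher were 1 of TGFB2, 1 of SMAD3 and 2 of TSC22D1. Without USP48 overexpression replicate 3, the array with the low GAPDH ratio, 8 were higher and 7 lower.

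**Figure D1:**
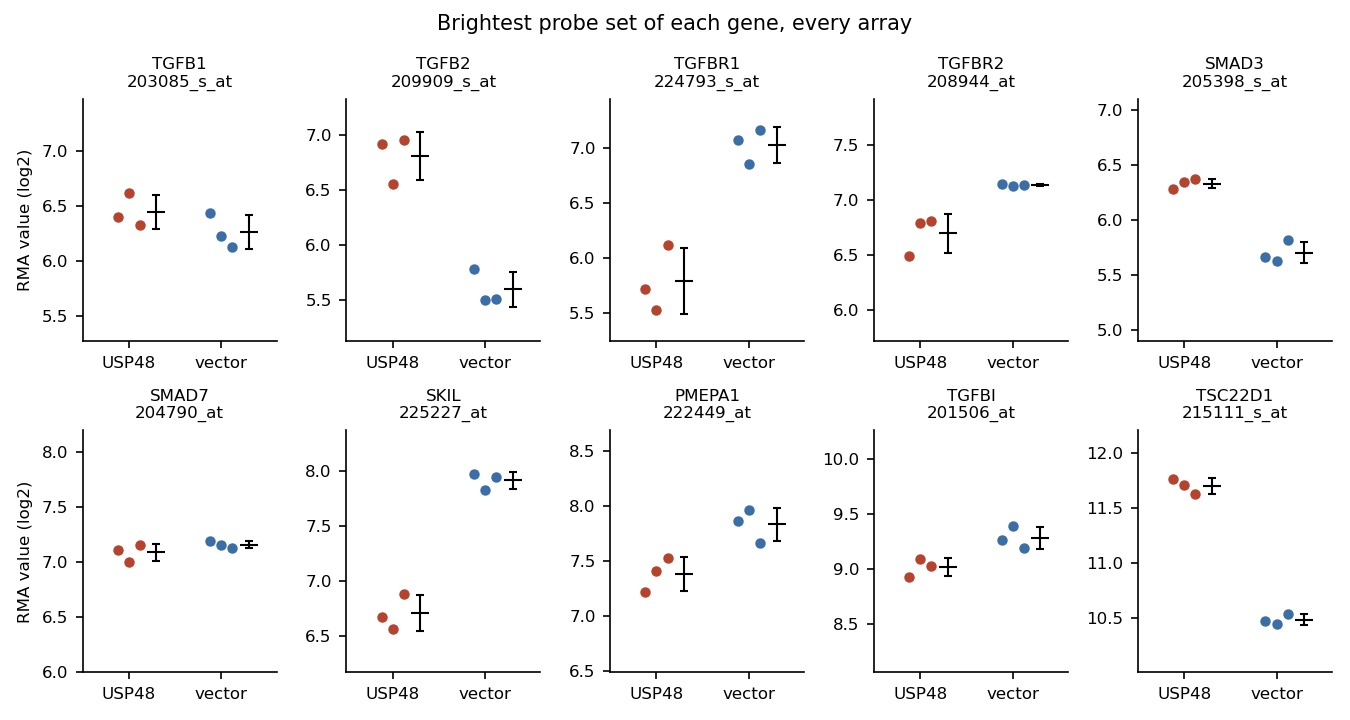
RMA values on the log2 scale of the brightest probe set of each of the 10 genes on every array, with USP48 overexpression (red) left of empty vector (blue). Points are single arrays, bars show mean and SD (n = 3), and every panel spans the same 2.2 log2 units, so that the distances between groups can be compared. The groups are apart for TGFB2, TGFBR1, TGFBR2, SMAD3, SKIL, PMEPA1, TGFBI and TSC22D1 and overlap for TGFB1 and SMAD7.

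Of the ligands, TGFB2 rose and TGFB1 did not pass the test. The brightest probe set of TGFB2, 209909_s_at, read 6.92, 6.56 and 6.96 in the USP48 overexpression arrays, against 5.79, 5.50 and 5.51 in the empty vector arrays. Every USP48 overexpression array lay above every empty vector array, and the difference was 1.21 (SE 0.13, 2.32-fold, limma adjusted p = 6.5e-05). It was 0.92 after scaling on the hybridization controls (limma adjusted p = 4.2e-05). In bulk RNA, fewer cells that express a gene and less of its RNA in each cell cannot be told apart. Probe set 220407_s_at read 4.94, 5.22 and 4.85 in the USP48 overexpression arrays, against 4.47, 4.40 and 4.29 in the empty vector arrays, again apart. It averaged 5.0 ± 0.19 in the USP48 overexpression arrays and 4.39 ± 0.09 in the empty vector arrays (SD, n = 3 each), a difference of 0.62 (limma adjusted p = 0.0022). Probe set 209908_s_at, dim in both groups, was at 0.58 (limma adjusted p = 0.027). All 5 TGFB2 probe sets had a positive difference, and those of 228121_at (0.45, limma adjusted p = 0.052) and 220406_at (0.16, limma adjusted p = 0.25) did not pass. After scaling on the hybridization controls 220407_s_at was at 0.32 (limma adjusted p = 0.066) and 209908_s_at at 0.29 (limma adjusted p = 0.11), so that 1 of the 5 probe sets kept its call. The call of 209908_s_at was also lost without USP48 overexpression replicate 3 (0.38, limma adjusted p = 0.066), without empty vector replicate 2 (limma adjusted p = 0.072) and without empty vector replicate 3 (limma adjusted p = 0.11), and with the replicate number as a block (limma adjusted p = 0.054).

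TGFB1, the founding ligand of the family, read 6.40, 6.62 and 6.32 in the USP48 overexpression arrays on probe set 203085_s_at, against 6.44, 6.23 and 6.13 in the empty vector arrays. The groups overlapped, and the difference of 0.18 had a 95% interval of −0.07 to 0.44 (limma adjusted p = 0.29). Its other probe set, 203084_at, was at −0.05, with an interval of −0.25 to 0.16, and at −0.34 after scaling on the hybridization controls (limma adjusted p = 0.023).

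The 250 bases before the RefSeq start site of TGFB2 on GRCh38.p14 are shown because TGFB2 is the ligand that changed. Capitals mark CAGACA, a sequence that SMAD3 and SMAD4 can bind, whose first base lies at −53 from the start site. On either strand this motif is found in 13.6% of the 35116 start-site windows of the same length in the RefSeq table. The palindromic SMAD box GTCTAGAC, the GC-rich box GGCGCC and the AP-1 motif TGANTCA were searched for too and are not in this window.
TGFB2 (chr1:218345086-218345335, plus strand): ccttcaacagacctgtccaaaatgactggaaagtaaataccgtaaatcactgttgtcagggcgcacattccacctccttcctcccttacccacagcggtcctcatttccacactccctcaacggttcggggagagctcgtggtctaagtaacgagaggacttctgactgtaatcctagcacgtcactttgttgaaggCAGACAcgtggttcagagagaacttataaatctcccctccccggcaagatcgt

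The receptors went the other way from TGFB2 on their brightest probe sets. For TGFBR1, the type I receptor kinase that carries the signal to the SMADs, 224793_s_at read 5.72, 5.52 and 6.11 in the USP48 overexpression arrays, against 7.07, 6.85 and 7.16 in the empty vector arrays. All 3 USP48 overexpression arrays lay below all 3 empty vector arrays, and the level fell by 1.24 on the log2 scale (SE 0.15, 2.36-fold, limma adjusted p = 0.00013). Another TGFBR1 probe set was called in the opposite direction: 206943_at read 3.79, 3.82 and 3.94 in the USP48 overexpression arrays, against 3.26, 3.28 and 3.36 in the empty vector arrays. That is a rise of 0.55 (SE 0.09, limma adjusted p = 0.0012) without overlap, but the empty vector mean is dim, and the control-scaled difference was 0.26 (limma adjusted p = 0.079). The remaining TGFBR1 probe set, 236561_at, was dim in both groups and at −0.36 (limma adjusted p = 0.056), or −0.66 after the same scaling (limma adjusted p = 0.0018). TGFBR1 was the 1 gene among the 8 with several probe sets that had calls in both directions.

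TGFBR2, the type II receptor that binds the ligand first, fell by 0.44 (SE 0.10, 1.35-fold, limma adjusted p = 0.011) on 208944_at. It read 6.50, 6.79 and 6.81 in the USP48 overexpression arrays, against 7.15, 7.13 and 7.14 in the empty vector arrays, and the groups did not overlap. USP48 overexpression replicate 1 was the lowest array, and without it the difference was −0.34 (limma adjusted p = 0.039). Probe set 207334_s_at, dim in both groups, was at 0.02, with a 95% interval of −0.22 to 0.26.

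Of the 2 SMAD genes, SMAD3 rose and SMAD7 did not pass the test. SMAD3, the receptor-activated transcription factor, read 6.28, 6.34 and 6.37 in the USP48 overexpression arrays on 205398_s_at, against 5.66, 5.63 and 5.81 in the empty vector arrays. The groups were apart, with a rise of 0.63 (SE 0.09, 1.54-fold, limma adjusted p = 0.00057), and of 0.33 after scaling on the hybridization controls (limma adjusted p = 0.036). Probe set 205396_at, with a dim empty vector mean, read 3.91, 3.71 and 3.71 in the USP48 overexpression arrays, against 3.32, 3.37 and 3.22 in the empty vector arrays. It rose by 0.47 without overlap (limma adjusted p = 0.0050) and was at 0.18 after that scaling (limma adjusted p = 0.26). Of the remaining SMAD3 probe sets, 205397_x_at, whose suffix marks probes that can also bind other transcripts, was at 0.33 (limma adjusted p = 0.058), and 218284_at at −0.05 (limma adjusted p = 0.78), or −0.34 after that scaling (limma adjusted p = 0.024).

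SMAD7, the inhibitory SMAD that brings ubiquitin ligases to the receptor, has 1 probe set, 204790_at. It read 7.11, 7.01 and 7.15 in the USP48 overexpression arrays, against 7.19, 7.16 and 7.13 in the empty vector arrays. The groups overlapped, and the 95% interval of the difference ran from −0.26 to 0.13 around −0.07 (limma adjusted p = 0.65). After scaling on the hybridization controls it was lower, at −0.36 (limma adjusted p = 0.019). The difference between the SMAD3 and the SMAD7 responses was not tested.

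**Figure D2:**
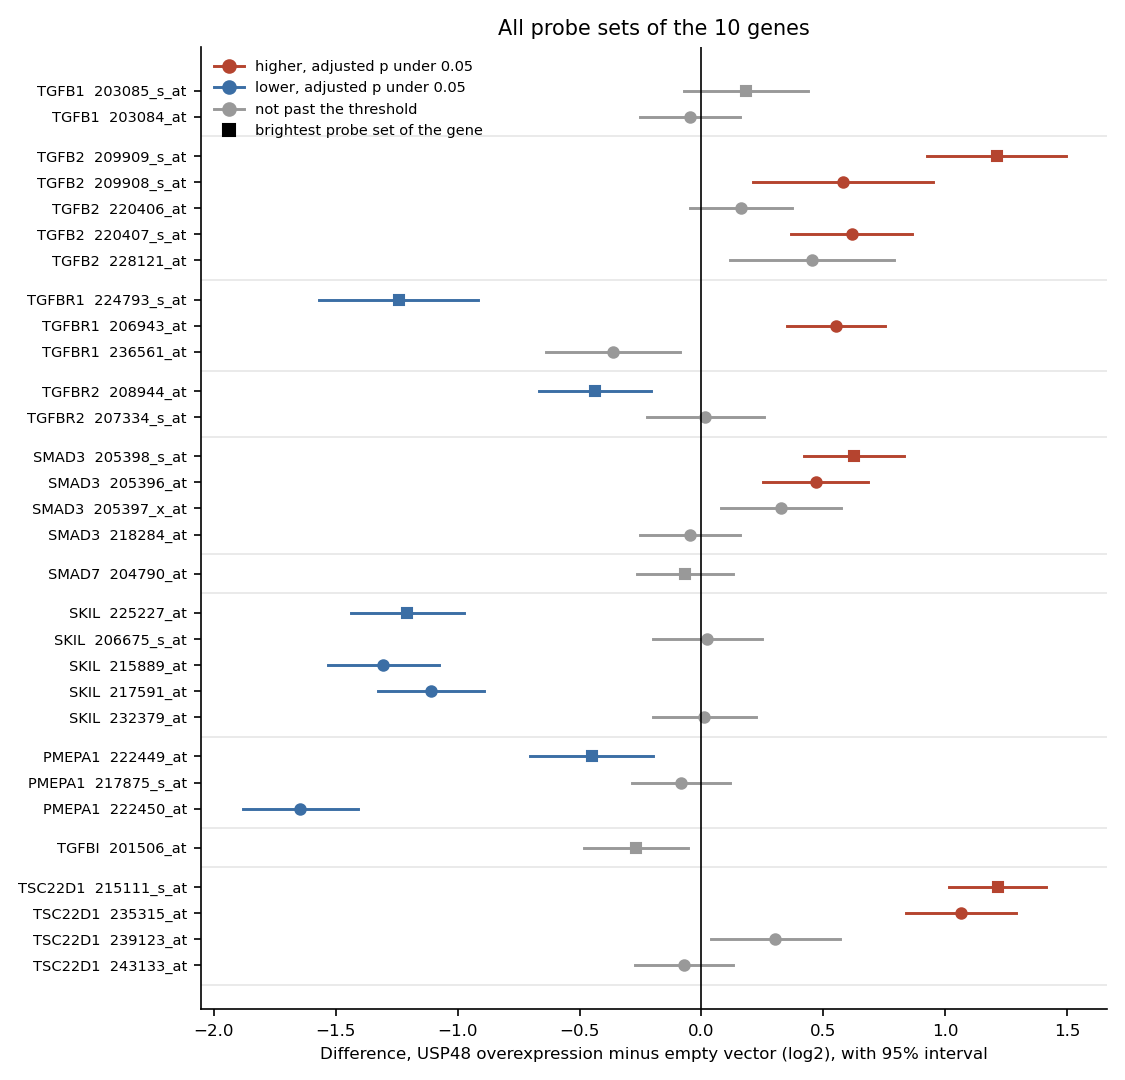
Difference between USP48 overexpression and empty vector (log2, points) with the 95% interval of the limma fit (lines) for all 30 probe sets, grouped by gene, with squares for the brightest probe set of each gene. Red and blue mark the 8 higher and 7 lower probe sets, and TGFBR1 has both colours. SKIL shows 3 probe sets near −1.2 and 2 near 0.

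SKIL, the nuclear corepressor SnoN that binds SMADs, fell on 3 of its 5 probe sets. Probe set 225227_at read 6.67, 6.57 and 6.88 in the USP48 overexpression arrays, against 7.97, 7.82 and 7.95 in the empty vector arrays. No array of one group reached the other, and the difference was −1.21 (SE 0.11, 2.31-fold, limma adjusted p = 1.9e-05). Probe set 217591_at read 5.29, 5.07 and 5.05 in the USP48 overexpression arrays, against 6.30, 6.24 and 6.20 in the empty vector arrays. It fell by 1.11 (2.16-fold, limma adjusted p = 2.0e-05) and 215889_at by 1.30 (limma adjusted p = 1.1e-05), the last with a dim mean in the USP48 overexpression arrays. The other 2 were at 0.03 (206675_s_at, 95% interval −0.20 to 0.25) and 0.01 (232379_at, dim in both groups). The 3 calls held in each alternative run, between −1.37 and −1.07 with 1 array left out.

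PMEPA1, a membrane protein that ties SMADs to ubiquitin ligases of the NEDD4 family, fell on 2 of its 3 probe sets. The brightest, 222449_at, read 7.21, 7.41 and 7.53 in the USP48 overexpression arrays, against 7.87, 7.96 and 7.67 in the empty vector arrays. The groups were narrowly apart, with a difference of −0.45 (SE 0.11, 1.37-fold, limma adjusted p = 0.015). That call was lost without USP48 overexpression replicate 1 (−0.37, limma adjusted p = 0.061), without empty vector replicate 1 (−0.43, limma adjusted p = 0.055) and without empty vector replicate 2 (−0.39, limma adjusted p = 0.068). Probe set 222450_at had the lowest difference of all 30, with 3.54, 3.76 and 3.83 in the USP48 overexpression arrays, against 5.46, 5.36 and 5.25 in the empty vector arrays. The groups were far apart, at −1.65 (SE 0.11, limma adjusted p = 3.5e-06), though the USP48 overexpression mean is dim. The last, 217875_s_at, was at −0.08, with a 95% interval of −0.28 to 0.12, and at −0.38 after scaling on the hybridization controls (limma adjusted p = 0.019). The probe sets were not mapped to transcripts here, so which transcripts each reads is not known.

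Start-site windows of both genes are shown because both genes fell on several probe sets. SKIL has 1 window in the RefSeq table. Of the 4 windows of PMEPA1 the one with a CAGACA motif is given. Another of the 4 holds GGCGCC, starting at −207. Capitals mark GGCGCC in SKIL, starting at −190, and CAGACA in PMEPA1, starting at −115. CAGACA is found in 13.6% of all windows of the table, and in 5 of the 31 windows of the 10 genes. GGCGCC is found in 16.4% of all windows of the table, and in 6 of the 31 windows of the 10 genes. GTCTAGAC, which 0.182% of all windows hold, is in 0 of the 31 windows of the 10 genes.
SKIL (chr3:170357465-170357714, plus strand): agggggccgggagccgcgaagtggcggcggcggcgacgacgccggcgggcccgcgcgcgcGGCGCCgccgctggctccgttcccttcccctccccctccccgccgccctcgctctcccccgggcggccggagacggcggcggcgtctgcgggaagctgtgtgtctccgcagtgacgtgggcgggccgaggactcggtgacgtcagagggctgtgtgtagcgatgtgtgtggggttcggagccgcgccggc
PMEPA1 (chr20:57710578-57710827, minus strand): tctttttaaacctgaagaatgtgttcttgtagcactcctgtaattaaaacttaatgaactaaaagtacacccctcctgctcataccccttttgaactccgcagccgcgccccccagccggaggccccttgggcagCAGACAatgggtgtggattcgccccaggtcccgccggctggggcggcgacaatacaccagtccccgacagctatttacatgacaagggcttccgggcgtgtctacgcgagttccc

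TSC22D1, a leucine zipper regulator of transcription first found in mouse cells as a gene induced by TGF-beta, rose on 2 of its 4 probe sets. Its brightest probe set, 215111_s_at, read 11.77, 11.71 and 11.63 in the USP48 overexpression arrays, against 10.47, 10.45 and 10.54 in the empty vector arrays. The arrays of each group lay close together and the groups were apart, with a difference of 1.22 (SE 0.09, 2.32-fold, limma adjusted p = 7.0e-06), the highest of the 30 probe sets. Probe set 235315_at, dim in both groups, read 3.24, 3.41 and 3.56 in the USP48 overexpression arrays, against 2.30, 2.35 and 2.37 in the empty vector arrays. These too were apart, with a rise of 1.06 (limma adjusted p = 3.3e-05). After scaling on the hybridization controls both stayed higher, at 0.92 and 0.77. The remaining 2 were dim in both groups and did not pass, at 0.30 (239123_at, limma adjusted p = 0.094) and −0.07 (243133_at, limma adjusted p = 0.64). After that scaling 243133_at was lower, at −0.36 (limma adjusted p = 0.021).

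TSC22D1 has 5 start-site windows in the RefSeq table, spread over several start sites of the gene. The one printed holds TGAGTCA, a form of the AP-1 motif TGANTCA, with its first base at −77 (capitals). TSC22D1 is shown because it had the highest difference, and this window because it holds that motif. Another of the 5 windows holds GGCGCC, starting at −194, and the rest hold none of the motifs searched for. Which start site the probe sets read was not analysed. TGANTCA is in 6.57% of all windows of the table and in 2 of the 31 of these genes.
TSC22D1 (chr13:44474342-44474591, minus strand): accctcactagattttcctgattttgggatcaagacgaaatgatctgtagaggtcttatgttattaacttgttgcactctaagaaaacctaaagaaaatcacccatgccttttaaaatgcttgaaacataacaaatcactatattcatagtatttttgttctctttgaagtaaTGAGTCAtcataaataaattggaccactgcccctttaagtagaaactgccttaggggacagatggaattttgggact

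TGFBI, a secreted matrix protein that binds integrins, did not pass over all probe sets and passed in several alternatives. Its 1 probe set, 201506_at, read 8.93, 9.09 and 9.03 in the USP48 overexpression arrays, against 9.26, 9.39 and 9.19 in the empty vector arrays. The groups did not overlap, and the difference was −0.27 (SE 0.10, 1.20-fold, limma adjusted p = 0.068). It was called lower after scaling on the hybridization controls (−0.56, limma adjusted p = 0.0013), after quantile normalization (limma adjusted p = 0.048), with an intensity trend and robust variance (limma adjusted p = 0.021) and without the dimmest probe sets (limma adjusted p = 0.044). Over genes in place of probe sets, with 1 probe set for each of 19775 genes, its limma adjusted p was 0.047. In that fit 8 of the 10 genes passed, 3 higher and 5 lower, against 29.8% of all genes (15.7% higher and 14.1% lower).

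**Figure D3:**
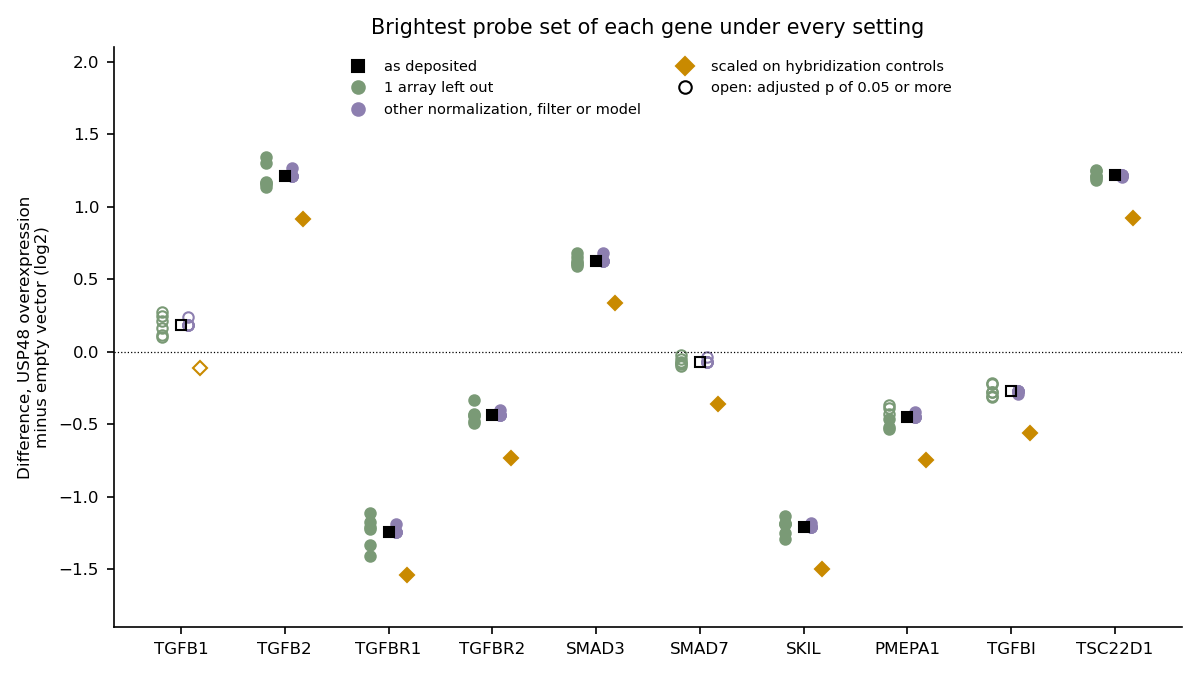
Difference between USP48 overexpression and empty vector (log2) for the brightest probe set of each gene as deposited (squares), with 1 array left out (green), with another normalization, filter or model (purple) and after scaling on the hybridization controls (diamonds), where open symbols have an adjusted p of 0.05 or more. TGFB2, SMAD3 and TSC22D1 stay above 0 and TGFBR1, TGFBR2, SKIL and PMEPA1 below 0 in all of them, while TGFB1 changes sign after the scaling.

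Profiles most like those of the 2 extreme probe sets were looked for among all other genes, by the root mean square difference over the 6 arrays after subtracting the empty vector mean. For TSC22D1 215111_s_at these were GATA6, a transcription factor of endoderm, SH2D2A, DCUN1D3 and the dystrophin gene DMD, at 0.04, 0.044, 0.046 and 0.055 log2 units, with differences of 1.25, 1.18, 1.24 and 1.22. For PMEPA1 222450_at they were the adhesion molecule ALCAM, the matrix protein gene NPNT, OLFM1 and the kinase gene ROCK2, at 0.076, 0.082, 0.086 and 0.095, with differences of −1.60, −1.60, −1.72 and −1.70. With 6 arrays in 2 groups, any gene with a difference of like size and a small spread ranks high on this measure.

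Beyond the 10, 84 other genes of the pathway were read by the brightest probe set of each, in lists of ligands, receptors, SMAD regulators and target genes. Of these 33 rose and 12 fell at a limma adjusted p under 0.05 over all 19775 genes, or 53.6%, against 29.8% of all genes. Their median difference was 0.07 and that of all genes 0.05. After scaling on the hybridization controls 23 were higher and 33 lower, against 4.84% higher and 37.9% lower of all genes, so that the count of lower genes was near that of the array. Lists overlap in LTBP2, and ITGB6, BMPR1A, CRIPTO, USP15 and PTHLH were not analysed here.

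Of 24 ligands, ligand antagonists and genes that store or activate ligand, 7 rose and 5 fell. GDF15, a distant family member and stress-induced hormone, averaged 10.27 ± 0.09 in the USP48 overexpression arrays and 8.44 ± 0.09 in the empty vector arrays (SD, n = 3 each), a difference of 1.82 (limma adjusted p = 5.4e-07). THBS1, which can release TGF-beta from its latent form, rose by 1.12 on its brightest probe set and was at −0.025 on the lowest of its 7. INHBE, an activin subunit, rose by 1.01 from a dim level in the empty vector arrays. LTBP1, which anchors latent TGF-beta in the matrix, fell by 1.02, and the integrin subunit gene ITGAV, whose protein takes part in its activation, fell by 0.97. TGFB3, the remaining TGF-beta ligand, was at −0.07 (limma adjusted p = 0.66), or −0.36 after scaling on the hybridization controls (limma adjusted p = 0.026). NRROS rose by 0.44, or by 0.15 after that scaling, which did not pass (limma adjusted p = 0.34).

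Of 10 other receptors and co-receptors, 3 rose and 1 fell. BAMBI, a decoy receptor without a kinase domain, rose by 0.98, and the type I receptor gene ACVR1 by 0.84. ACVR2A rose by 0.55 on its brightest probe set, or 0.26 after scaling on the hybridization controls (limma adjusted p = 0.098), and was at −0.07 on its other one. TGFBR3, the co-receptor betaglycan that presents TGFB2 to the signalling receptors, fell by 0.66 (limma adjusted p = 0.00015) on its brightest probe set, with −0.64 on the other. TGFBR1, TGFBR2 and TGFBR3 were thus each lower on the brightest probe set.

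Of 22 other SMADs and SMAD regulators, 6 rose and 4 fell. SKI, the closest relative of SKIL, fell by 0.74 on its brightest probe set, and its 3 probe sets ran from −0.90 to 0.075. The ubiquitin ligase genes WWP1 and SMURF2 fell by 0.90 and 0.59, and their probe sets all lay below 0. NEDD4L, another ligase of that family, rose by 0.59 on its brightest probe set, but its probe sets ran from −0.38 to 0.59. TGIF1, a SMAD corepressor, rose by 0.76, with its lowest probe set at 0.015. After scaling on the hybridization controls TGIF1 (0.47) and NEDD4L (0.29) stayed higher. SMAD1 (0.38 to 0.08), USP4 (0.27 to −0.02), UCHL5 (0.26 to −0.03) and SNW1 (0.29 to 6.6e-05) lost their calls with that scaling. SMAD2 and SMAD4, the partners of SMAD3, were at 0.07 and −0.19 and did not pass, though SMAD4 was lower after scaling on the hybridization controls (−0.48, limma adjusted p = 0.0045). Their probe sets ran from −1.36 to 0.27 and from −1.21 to 0.35.

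Of 29 target genes, 17 rose and 2 fell, with a median difference of 0.45, or 0.15 after scaling on the hybridization controls. Of all genes 15.7% were called higher and 14.1% lower. After that scaling BHLHE40 (0.40 to 0.11), COL4A1 (0.45 to 0.15), IL11 (0.55 to 0.25) and PDGFB (0.45 to 0.15) lost their calls on their brightest probe sets. As deposited, the other probe set of IL11 was at 2.75, that of BHLHE40 at 0.68 and that of COL4A1 at 0.67. The 4 probe sets of PDGFB ran from 0.21 to 0.52. The scaling also had ACTA2 (−0.17 to −0.47), CDKN2B (−0.17 to −0.46), COL1A1 (−0.29 to −0.58), ID2 (−0.09 to −0.38) and TPM1 (−0.11 to −0.40) called lower. As deposited, the probe sets of ACTA2 ran from −0.17 to 0.35, of COL1A1 from −0.40 to 0.12 and of TPM1 from −0.17 to 0.38. Those of CDKN2B and ID2 all lay below 0. The list was named with earlier results of these data known, and many of its genes also answer to other signals, so its direction is no independent reading of the pathway. CCN2, a matricellular protein, averaged 7.79 ± 0.09 in the USP48 overexpression arrays and 5.15 ± 0.13 in the empty vector arrays (SD, n = 3 each), a difference of 2.64 (limma adjusted p = 2.6e-07). ANGPTL4, a secreted lipase inhibitor, rose by 2.19 and GADD45B, a stress-response gene, by 2.18. The repressor gene SNAI2 rose by 1.74, and the matrix gene FN1 by 1.48, with its 7 probe sets between 0.06 and 1.48. The cadherin gene CDH2 at −0.65 and ID3, a target of the BMP branch, at −0.53 were the 2 that fell. The call of ID3 was lost without empty vector replicate 1 (−0.50, limma adjusted p = 0.061) or 2 (−0.48, limma adjusted p = 0.070), and without USP48 overexpression replicate 3 its difference was −0.35 (limma adjusted p = 0.029). ID1 did not pass, at −0.14, and its sign rested on USP48 overexpression replicate 3, without which it was at 0.28 (limma adjusted p = 0.056).

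**Figure D4:**
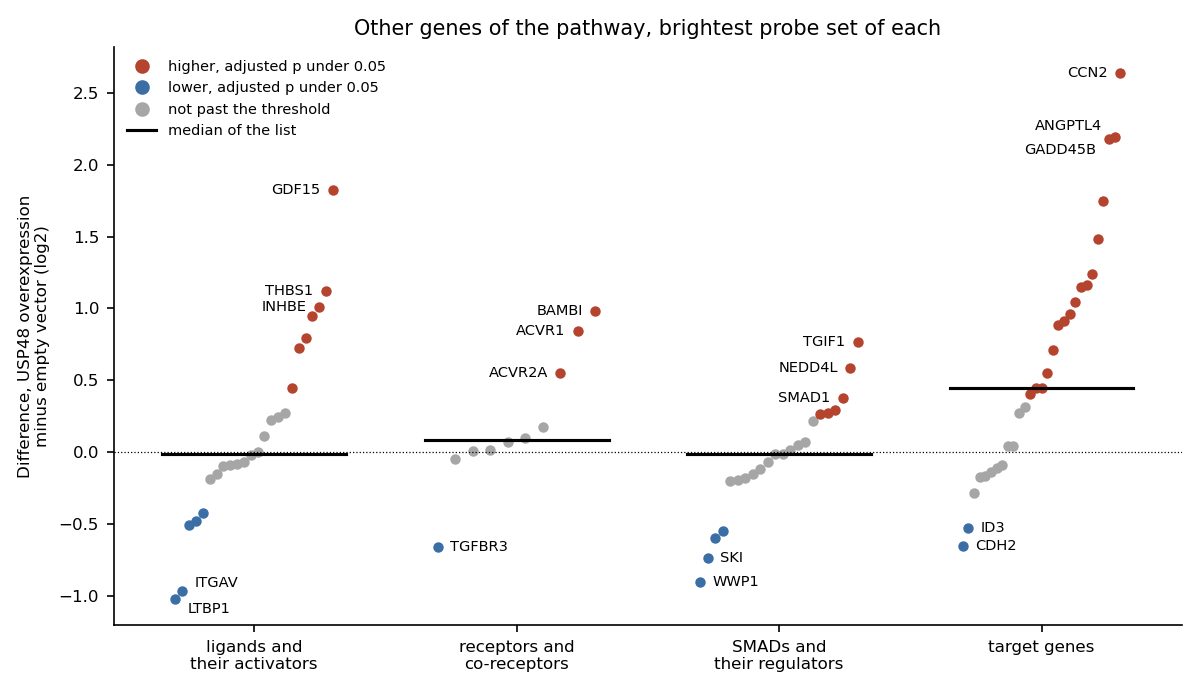
Difference between USP48 overexpression and empty vector (log2) for each gene of the 4 pathway lists, by its brightest probe set, with a black line at the median of each list. Red and blue points passed the test. Of the target genes 17 of 29 are higher, against 15.7% of all genes, while the medians of the other 3 lists lie between −0.01 and 0.09, or between −0.31 and −0.21 after scaling on the hybridization controls.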

How the data were processed

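Expression was measured on 6 Affymetrix arrays, 3 for each group, from 6 µg of total RNA each, per the labels' protocols. Per the submitters' processing notes RMA produced the deposited log2 values, 1 for each probe set and array. The sources used here do not give its version or settings. RMA equalises the arrays' distributions, so a change in total RNA per cell cannot be seen. Values ran from 0.190 to 13.2, the lowest being unusually low for RMA. Probe sets were named by GEO's platform annotation, which can be old and in which 41091 of 54613 name 1 gene, and 41037 of these matched RefSeq. No filter or further normalization was applied. The test was limma's moderated comparison of the groups (version 3.58.1, R 4.3.3, two-sided, Benjamini-Hochberg), over all probe sets for the 10 genes and over 19775 genes, each by its brightest probe set, for the lists. The test was checked on simulated data. Single measures were compared with an exact permutation test in scipy 1.17.1, and figures were drawn with matplotlib 3.10.9.

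All probe sets of the 10 genes are reported. From each list the text names up to 5 called genes, those furthest from 0. TGFB3, NRROS, SMAD1, SMAD2, SMAD4, USP4, UCHL5, SNW1, CDH2, ID1 and ID3 were named after their values were seen. The same holds for the target and marker genes whose calls changed with the scaling. The members, lists and alternatives were chosen with earlier results of these data known. Promoter sequences are those of RefSeq on GRCh38.p14, and all 10 genes matched. No 2 columns were identical and 0 were left unused. The precision is limited by the number of arrays.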

Additional observations from a re-analysis of the deposited data

How the results depend on the processing

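The alternatives were quantile normalization, median centring, scaling on the hybridization controls, removal of the dimmest probe sets, a limma fit with trend and robust variance, the replicate number as a block, each array left out in turn, stricter thresholds and, for genes, the mean of all probe sets. Of the 15 called probe sets of the 10 genes, 10 kept direction and call in all 12 alternative fits, and 13 in all but the scaling on the hybridization controls. That scaling gave 4 higher and 14 lower probe sets and 33 lower pathway genes, because it lowers every difference by 0.29. A limit of 1.5-fold left 5 higher probe sets and 7 lower pathway genes. With 1 array left out, 7 to 9 probe sets of the 10 genes were higher and 6 to 7 lower, and 30 to 32 pathway genes were higher and 9 to 12 lower. With the replicate block, 9 probe sets were higher and 7 lower: TGFB2 209908_s_at lost its call (limma adjusted p = 0.054), and TGFB2 228121_at (limma adjusted p = 0.031) and TSC22D1 239123_at (limma adjusted p = 0.046) passed. Same-numbered arrays correlated at −0.02, 0.11 and −0.02 in their deviations from the group means, so the numbers were not taken as pairs. Only probe sets that had not passed the test changed sign. After scaling on the hybridization controls these were TGFB1 203085_s_at (−0.11), TGFB2 220406_at (−0.13), TGFBR2 207334_s_at (−0.28), SKIL 206675_s_at (−0.27) and SKIL 232379_at (−0.28). Quantile normalization turned SMAD3 218284_at (0.025) and SKIL 232379_at (−0.011). With 1 array left out, TGFBR2 207334_s_at ran from −0.082 to 0.070, SKIL 206675_s_at from −0.040 to 0.081 and SKIL 232379_at from −0.059 to 0.054. With the mean of its 2 probe sets, TGFBR2 was at −0.21 (limma adjusted p = 0.11). The cause was not tested. Detection above background was not analysed, which limits what the dim probe sets show.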
